A study of Mus musculus with 12 samples.

Results

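Interferon response genes were followed in the retina of C57BL/6J mice, Cast/EiJ mice and their reciprocal F1 hybrids. The set holds 9 genes, Stat2, Irf7, Irf9, Isg15, Ifit1, Ifit3, Oas1a, Ifi35 and Bst2, found by gene symbol among the 37991 genes of the tables. All 9 had a row. The mRNA-seq data comprise 12 libraries in 4 classes, each with 3 replicates. The F0 classes are the inbred strains C57BL/6J and Cast/EiJ, and the F1 classes are the crosses B6xCast (C57BL/6J father, Cast/EiJ mother) and CastxB6 (Cast/EiJ father, C57BL/6J mother). C57BL/6J is the standard inbred reference strain, and Cast/EiJ is a wild-derived inbred strain of the same species. All mice were untreated males of 8 weeks, and every library was made from a pool of 6 to 8 retinas, so that a replicate describes a pool and not a single animal. The F0 libraries were read on 1 lane and the F1 libraries on 2.

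Type I interferons are secreted proteins that bind a receptor on nearly every cell and activate the kinases Jak1 and Tyk2. These phosphorylate Stat proteins such as Stat2, which join Irf9 to form the complex ISGF3, and ISGF3 binds a short DNA element, the interferon-stimulated response element (ISRE), at the promoters of many antiviral genes. Irf7 is itself such a target and in turn drives interferon gene transcription, and many of the target genes keep a low basal level in tissue that is not infected. In the retina, microglia and Mueller glia are known to respond to interferon.

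The promoter sequences are shown because ISGF3 is known to act through them. RefSeq windows of GRCm38.p6, from 250 bases before to 50 bases after a start site, were found for all 9 genes (10 windows, since Irf9 had a pair). The ISRE core was searched as a pair of GAAA half-sites with any 2 bases between them, on both strands, and overlapping matches were counted separately. It was found in the windows of 6 of the 9 genes, whereas 3.44% of all 32851 windows hold it. No match was found in the windows of Irf7, Irf9 and Ifi35, which says only that these letters are not in these windows. The 30 bases around the matches are given below on the strand of the gene, 5′ to 3′, with the matches in capitals (TTTC is the half-site read on the other strand). Stat2 lies on the plus strand (chr10:128270266-128270295), Isg15 on the minus strand (chr4:156200871-156200900), Ifit1 and Ifit3 on the plus strand (chr19:34640784-34640813 and chr19:34583397-34583426), and Oas1a and Bst2 on the minus strand (chr5:120907523-120907552 and chr8:71537580-71537609).
Stat2: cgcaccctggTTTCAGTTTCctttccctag
Isg15: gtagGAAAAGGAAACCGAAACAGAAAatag
Ifit1: gTTTCACTTTCcagtctcagTTTCAGTTTC
Ifit3: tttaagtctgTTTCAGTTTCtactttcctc
Oas1a: ttctcggGAAATGGAAACTGAAAatctact
Bst2: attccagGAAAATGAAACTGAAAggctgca
Isg15 held 3 overlapping matches between positions -78 and -57 from the start site, and Ifit1 held 2 between -104 and -76. Ifit3 held 2 between -156 and -113, of which the one nearer the start site is printed. Oas1a held 2 overlapping matches between -20 and -5, Bst2 held 2 between -130 and -115, and Stat2 held 1 between -222 and -213. These are the reference (C57BL/6J) letters, and the Cast/EiJ letters were not examined here.

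Expression is given in count equivalents, the normalized read numbers per gene estimated by the authors. In the F1 libraries each allele has its own column on the scale of a whole F0 library, so that allele columns and F0 columns can be set side by side, and the F1 level of a gene is the mean of its 2 allele columns. Unique hits, read pairs assigned to 1 gene alone (in F1 to 1 allele alone), give the depth. They summed to between 8158534 and 12363291 per library. Differences are log2 of Cast/EiJ over C57BL/6J on the log2(count equivalents + 1) scale, which understates changes of low genes, and they were tested with limma and Benjamini-Hochberg adjustment over all genes tested. A gene was called at an adjusted p under 0.05. Replicate 1 stood apart in both F0 strains and in F1 B6xCast from the other replicates of the group. The chi-square per degree of freedom between unique hits was 11.4 and 12.5 for the pairs with replicate 1 against 3.09 for the remaining pair in F0 C57BL/6J, 7.18 and 8.42 against 3.20 in F0 Cast/EiJ, and 5.71 to 6.27 against 1.51 to 1.52 in F1 B6xCast. Counts were therefore also taken without these 3 libraries, an alternative chosen after the data were seen. Rod genes gave by far the highest marker levels, with a summed level of 765500 to 837200 count equivalents for 5 rod markers, and defining markers of the labelled tissue were thus high in every library.

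Basal levels were low. Between genes, levels are compared per transcript length, as FPKM taken from the deposited log expression. Over the 12 libraries Stat2 (mean 6.32 FPKM ± 0.60, SD) and Irf9 (4.13 ± 0.73), the DNA-binding partners of ISGF3, headed the order, and their ranges did not overlap (5.64 to 7.43 against 3.24 to 5.29). Irf7 followed at 3.77 ± 3.48, Ifit3 at 2.26 ± 1.34, Bst2 at 1.73 ± 0.58 and Ifi35 at 1.35 ± 0.40. Isg15 (0.59 ± 0.34) and Ifit1 (0.36 ± 0.18) lay lower and Oas1a lowest (0.020 ± 0.040). From Irf9 down to Ifit1 the ranges of neighbours in this order overlapped. The order itself differed between the strains. In F0 C57BL/6J the highest mean was that of Irf7 (8.64 FPKM ± 4.02, n = 3), above Stat2 (6.58 ± 0.72), but the ranges of these 2 genes overlapped. In F0 Cast/EiJ, Irf7 (1.13 ± 0.44) stood below Stat2 (6.38 ± 0.52), Irf9 (4.16 ± 0.99) and Bst2 (2.53 ± 0.27).

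**Figure D1:**
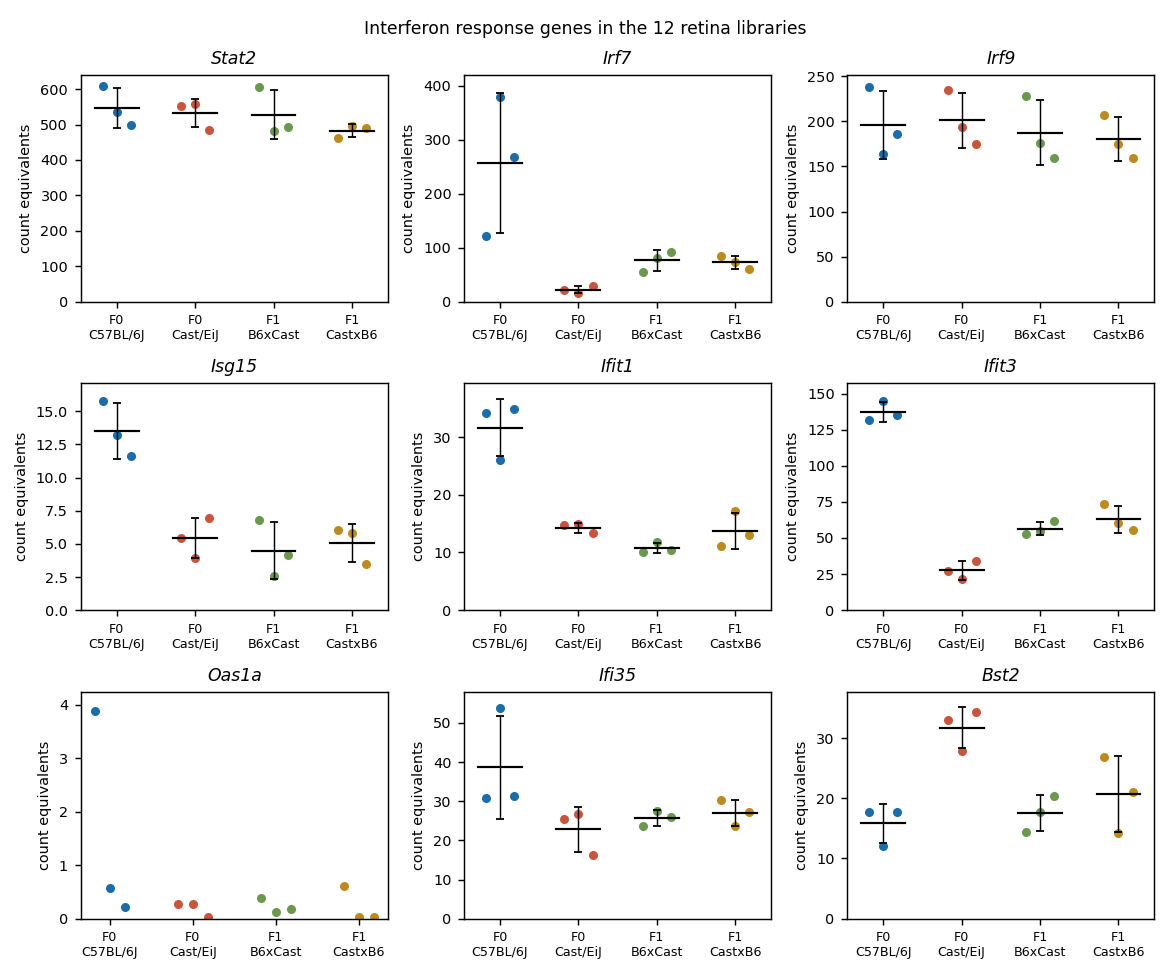
Count equivalents (linear axis from 0) of the 9 genes, with 1 point per library, in the 4 classes; an F1 point is the mean of both alleles, a long bar the group mean and the whiskers ± 1 SD (n = 3; none drawn for Oas1a, which is close to 0). Irf7 and Ifit3 are highest in F0 C57BL/6J, lowest in F0 Cast/EiJ and intermediate in both crosses, Isg15 and Ifit1 of the hybrids lie at the level of F0 Cast/EiJ, and Bst2 is highest in F0 Cast/EiJ.

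The F0 strain comparison asked which of these genes differ between the parental retinas. Irf7, Ifit3, Isg15 and Ifit1 were lower in Cast/EiJ by 10.3-, 4.92-, 2.28- and 2.12-fold, Bst2 was 1.96-fold higher, and Stat2, Irf9 and Ifi35 passed no test. Thus 5 of the 8 genes tested were called, 4 of them lower, beside 33.8% of all 14452 genes called and 16.6% called lower. The median log2 difference of the 8 genes was -0.90, beside 0.03 over all genes tested. Without the 3 libraries that stood apart 3 members were called (Irf7, Ifit3 and Ifit1), and without F0 C57BL/6J replicate 2 likewise 3. In these bulk samples, fewer cells of a type and less RNA per cell cannot be told apart.

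The 3 transcription factors of the set behaved differently from each other. Stat2 (ENSMUSG00000040033, NCBI37 chromosome 10, 127707629 to 127729905, plus strand), the Stat partner specific to type I and type III interferon signalling, had 609, 535 and 499 count equivalents in F0 C57BL/6J and 552, 557 and 486 in F0 Cast/EiJ. These ranges overlapped, and the log2 difference was -0.04 ± 0.10 (SE; 95% interval -0.27 to 0.19; limma adjusted p = 0.79). Irf9 (ENSMUSG00000002325, chromosome 14, 56222408 to 56228867, plus strand), the DNA-contacting subunit of ISGF3, had 238, 164 and 186 in F0 C57BL/6J and 235, 194 and 175 in F0 Cast/EiJ. Its strains overlapped as well, with a log2 difference of 0.05 ± 0.17 (95% interval -0.33 to 0.42; adjusted p = 0.86).

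Irf7 (ENSMUSG00000025498, chromosome 7, 148448605 to 148452380, minus strand), the inducible factor that amplifies the response, had 122, 380 and 269 count equivalents in F0 C57BL/6J and 21.6, 16 and 29.1 in F0 Cast/EiJ. Every C57BL/6J library was above every Cast/EiJ library, although the C57BL/6J libraries themselves spanned a wide range. The log2 difference was -3.37 ± 0.39 (95% interval -4.25 to -2.48; limma adjusted p = 0.00024). It was the largest difference of the set and was called in all 16 alternatives, with log2 values between -3.83 and -2.90. Its unique hits, 104 to 362 per library in C57BL/6J and 10 to 27 in Cast/EiJ, showed the same order.

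Ifit3 and Ifit1 encode antiviral proteins of the same family, of which Ifit1 binds viral RNA and blocks its translation. They lie in a cluster on chromosome 19. Ifit3 (ENSMUSG00000074896, 34658021 to 34663221, plus strand) had 132, 145 and 135 count equivalents in F0 C57BL/6J and 27, 21.5 and 34.2 in F0 Cast/EiJ. The groups lay far apart relative to their spread, and the log2 difference of -2.30 ± 0.20 had an adjusted p of 4.2e-05 with limma. Ifit1 (ENSMUSG00000034459, 34715361 to 34724499, plus strand) had 34.1, 26 and 34.8 in F0 C57BL/6J against 14.7, 14.9 and 13.3 in F0 Cast/EiJ. All C57BL/6J libraries were again higher, with a log2 difference of -1.08 ± 0.25 and a limma adjusted p of 0.0098. Isg15 (ENSMUSG00000035692, chromosome 4, 155573533 to 155574927, minus strand), a ubiquitin-like protein that is attached to other proteins, had 15.8, 13.2 and 11.6 in F0 C57BL/6J and 5.44, 3.91 and 6.98 in F0 Cast/EiJ. The groups did not overlap, but each library held only 3 to 14 unique hits. Its log2 difference was -1.19 ± 0.36 (limma adjusted p = 0.031), and the call was lost in 7 of 15 alternatives, in which the adjusted p reached 0.21. These included leaving out any 1 of the F0 C57BL/6J libraries or F0 Cast/EiJ replicate 2 (adjusted p between 0.065 and 0.1).

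Bst2 (ENSMUSG00000046718, chromosome 8, 74058163 to 74061336, minus strand), or tetherin, which holds budding virus at the cell surface, was the exception in direction. It had 17.7, 12.1 and 17.7 count equivalents in F0 C57BL/6J and 33, 27.9 and 34.3 in F0 Cast/EiJ. Cast/EiJ was higher in every library, with a log2 difference of 0.97 ± 0.26 and a limma adjusted p of 0.019, but 5 of 15 alternatives lost the call (adjusted p up to 0.079), among them leaving out F0 C57BL/6J replicate 2 (0.068) or F0 Cast/EiJ replicate 3 (0.057). Ifi35 (ENSMUSG00000010358, chromosome 11, 101309721 to 101320012, plus strand), a leucine zipper protein that binds Nmi, had 30.8, 53.9 and 31.4 in F0 C57BL/6J and 25.4, 26.7 and 16.3 in F0 Cast/EiJ. The groups did not overlap, yet the log2 difference of -0.72 ± 0.30 was not called (limma adjusted p = 0.099) here or in any of 15 alternatives. Oas1a (ENSMUSG00000052776, chromosome 5, 121346265 to 121357536, minus strand), a oligoadenylate synthase, was not tested, being below 10 count equivalents in all 12 libraries. It had 3.89, 0.565 and 0.226 in F0 C57BL/6J and 0.267, 0.266 and 0.0332 in F0 Cast/EiJ, and unique hits were found only in replicate 1 of F0 C57BL/6J (3), of F1 B6xCast (1) and of F1 CastxB6 (1). A count of 0 allows up to 3 unique hits in a library, so that no difference was detectable at this depth.

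In the F1 hybrids both alleles share the same cells and the same trans-acting factors, and the comparison of the alleles asked which differences are carried by the chromosome itself. Of the 7 genes with a mean of at least 10 unique hits per F1 library, 5 were called, 3 with a lower and 2 with a higher Cast allele, beside 47.0% of 13414 genes called in all and 23.5% in each direction. The share of members is based on few genes and was not tested against this background. The same 5 were called without the 3 libraries that stood apart. The alleles are those of 6 libraries, 3 from each cross. Isg15 (44 unique hits in all, of which the Cast allele had 14) and Oas1a (2 hits in all) fell below the minimum.

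**Figure D2:**
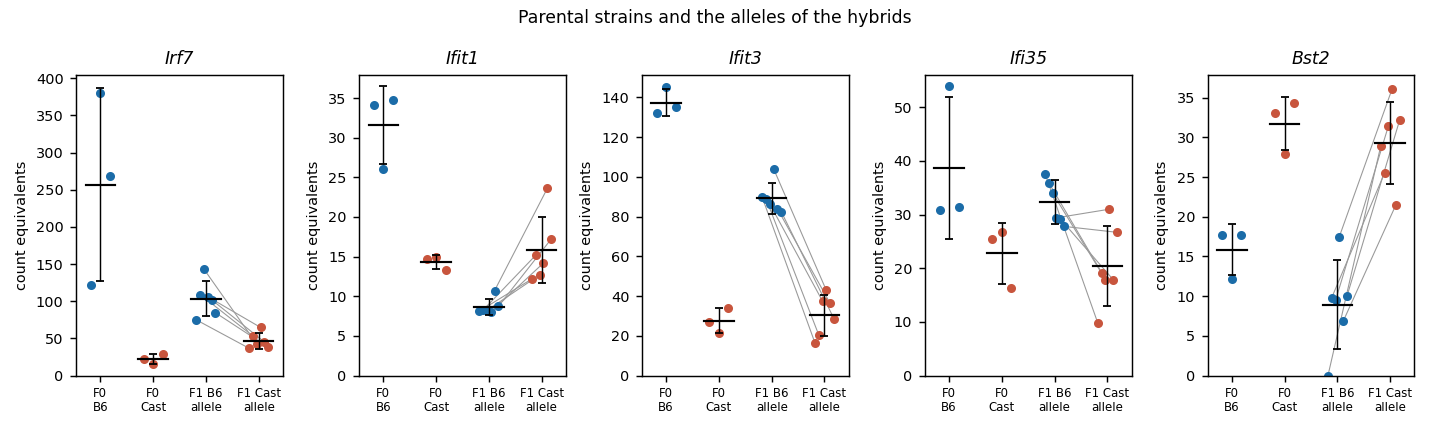
Count equivalents (linear axis from 0) of 5 genes in the F0 libraries (n = 3 per strain) and of the B6 and Cast alleles in the F1 libraries (n = 6, thin lines join the alleles of a library); long bars are means and whiskers ± 1 SD. The Cast allele is lower in all 6 libraries for Irf7 and Ifit3 and higher in all 6 for Ifit1 and Bst2, whereas in F0 Ifit1 is lower in Cast/EiJ.

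Irf7 was lower from the Cast allele in 6 of 6 F1 libraries. In F1 B6xCast the B6 allele had 74.8, 109 and 143 count equivalents and the Cast allele 36.6, 53.1 and 42.1, and in F1 CastxB6 the B6 allele had 106, 102 and 84.5 and the Cast allele 64.7, 45.1 and 38.1. No Cast value reached the lowest B6 value. The allelic log2 difference was -1.13 ± 0.22 (limma adjusted p = 0.00054), which is 2.19-fold, and the Cast allele had 28.1% of the 602 unique hits (Wilson 95% interval 24.6% to 31.8%, counting error only). The Cast allele in the hybrids (36.6 to 64.7) was above the whole range of F0 Cast/EiJ (16 to 29.1), and the B6 allele (74.8 to 143) was mostly below F0 C57BL/6J (122 to 380).

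Ifit3 showed the smallest adjusted p of the set between alleles. Its B6 allele had 89.7, 89 and 86.3 count equivalents in F1 B6xCast and 104, 83.9 and 82.5 in F1 CastxB6, and its Cast allele 16.4, 20.4 and 37.4 and 42.8, 36.3 and 28.6, respectively. The Cast allele was lower in 6 of 6 libraries without overlap, with a log2 difference of -1.60 ± 0.16 (limma adjusted p = 3.5e-07). The value is uncertain in size, because the B6 allele had only 20 to 37 unique hits per library beside 82.5 to 104 count equivalents. Which genes or alleles share the remaining reads was not tested. I830012O16Rik, a neighbouring gene which lies between Ifit3 and Ifit1, had a log2 difference of -2.19 in F0 and -1.33 between alleles (limma adjusted p = 0.0003 and 1.2e-05).

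Ifit1 went the other way between alleles than between strains. Its B6 allele had 8.12, 8.26 and 8.21 count equivalents in F1 B6xCast and 8, 10.7 and 8.72 in F1 CastxB6, and its Cast allele had 12.2, 15.2 and 12.7 and 14.2, 23.6 and 17.2. The Cast allele was higher in 6 of 6 libraries, with a log2 difference of 0.77 ± 0.15 (limma adjusted p = 0.00041) and 63.8% of 127 unique hits (Wilson 95% interval 55.1% to 71.6%). The Cast allele in the hybrids (12.2 to 23.6) overlapped the F0 Cast/EiJ level (13.3 to 14.9), while the B6 allele (8 to 10.7) was below every F0 C57BL/6J library (26 to 34.8). Of other genes of the cluster, Gm14446 had 5, 2010002M12Rik 7 and I830012O16Rik 247 unique hits in the 6 F1 libraries together. Unique hits leave out shared reads, and the sharing of reads between these genes was not tested.

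The Ifit cluster thus held allelic differences of opposite sign within 99.3 kb of chromosome 19 (34625184 to 34724499). Ifit2, the first gene of the interval and a member of the wider list described further on, had an allelic log2 difference of -2.59, with a Cast allele lower in 6 of 6 libraries (ratios between -3.47 and -1.83). For Ifit3 the ratio of a single library ranged from -2.38 to -1.18, for I830012O16Rik from -2.41 to -0.74, and for Ifit1 from 0.53 to 1.07. These ranges of Ifit1 and its 3 neighbours did not meet.

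Bst2 was higher from the Cast allele in 6 of 6 libraries. The B6 allele had 0.000152, 9.82 and 9.48 count equivalents in F1 B6xCast and 17.5, 6.83 and 9.99 in F1 CastxB6, and the Cast allele had 28.9, 25.5 and 31.4 and 36.1, 21.5 and 32.2. The log2 difference was 1.99 ± 0.42 (limma adjusted p = 0.00084), and the Cast allele had 73.3% of 116 unique hits. The size rests in part on F1 B6xCast replicate 1, a library that stood apart, in which the B6 allele had 0 unique hits against 9 for Cast. Without the 3 libraries that stood apart the difference was 1.42 (adjusted p = 0.00023). On log expression, where this library is not bounded by the pseudocount, it was 4.16 and not called (adjusted p = 0.087).

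Ifi35 was lower from the Cast allele in 5 of 6 libraries. The B6 allele had 37.6, 35.9 and 34 count equivalents in F1 B6xCast and 29.4, 29.2 and 27.8 in F1 CastxB6, and the Cast allele 9.76, 19.2 and 17.9 and 31, 17.9 and 26.7. The allele ranges overlapped in F1 CastxB6 only. The log2 difference of -0.71 ± 0.19 was called (limma adjusted p = 0.0054) and nearly equal to the F0 value, which was not. Stat2 alleles lay between 418 and 580 (B6) and between 482 and 634 (Cast), with a log2 difference of 0.05 ± 0.07 and a Cast share of 50.5% of 4199 unique hits (Wilson 95% interval 49.0% to 52.0%). Irf9 alleles lay between 137 and 222 (B6) and between 154 and 234 (Cast), with a difference of 0.12 ± 0.12 and a Cast share of 51.0% of 1247 hits. Neither was called (limma adjusted p = 0.61 and 0.42).

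A trans difference, the part of an F0 strain difference that the alleles do not show when they share a nucleus, was tested as the F0 difference minus the allelic difference in a single model. It uses the same F0 and F1 libraries as those comparisons and is not independent of them. The number of lanes and the transcriptome used for mapping differed between F0 and F1. Their part in any trans difference given here cannot be told apart. Irf7 and Ifit1 were called, 2 of 7 genes and both lower, beside 14.0% of 13414 genes called and 8.31% called lower. The median of the 7 genes was -0.70, beside -0.0035 over all genes. For Irf7 the trans difference was -2.24 ± 0.41 (95% interval -3.10 to -1.37; limma adjusted p = 0.0014), so that the larger part of the F0 difference of -3.37 was not seen between the alleles. For Ifit1 it was -1.86 ± 0.27 (95% interval -2.43 to -1.28; adjusted p = 0.00019), larger than the F0 difference itself because the allelic difference has the opposite sign. Both were called in every alternative in which the gene was tested. Ifit3 had a trans difference of -0.70 ± 0.29 that was not called (adjusted p = 0.12), and Bst2 had -1.02 ± 0.76 (adjusted p = 0.41). For Ifi35, Stat2 and Irf9 the values were -0.01, -0.09 and -0.08, with intervals of -0.74 to 0.72, -0.37 to 0.19 and -0.54 to 0.38.

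**Figure D3:**
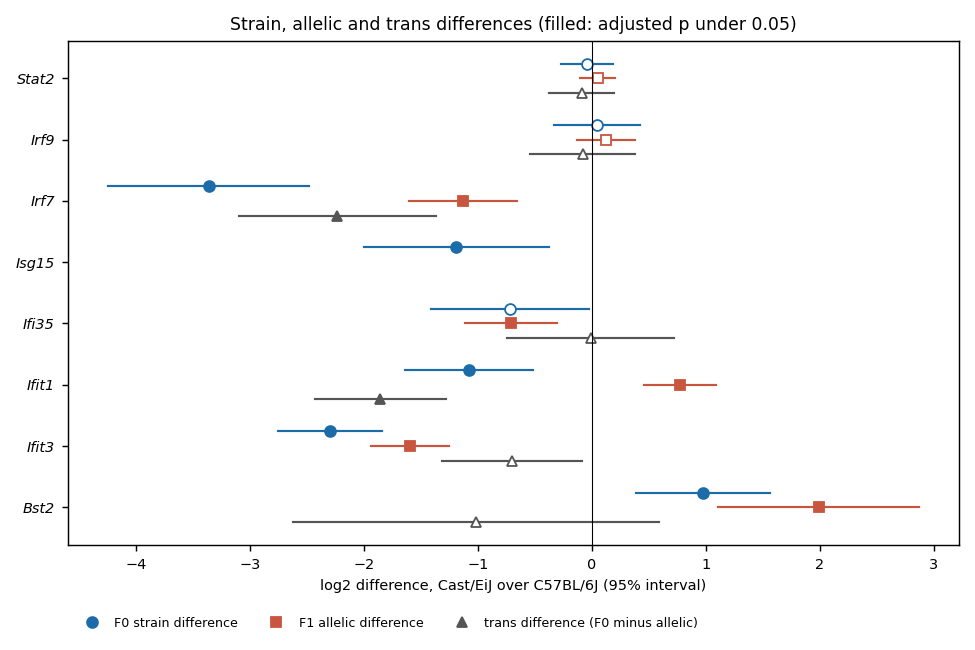
Log2 differences of Cast/EiJ over C57BL/6J (x axis) with 95% intervals for the 8 genes with an F0 test (Isg15 was not tested between alleles); circles are the F0 strain difference, squares the F1 allelic difference and triangles the trans difference, filled where the limma adjusted p was under 0.05. Ifit1 has an F0 difference of -1.08 and an allelic difference of 0.77, and the trans intervals of Irf7 and Ifit1 lie wholly below 0.

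The level of the hybrids was compared with the parents over 14710 genes. These comparisons share the F1 libraries and, in pairs, the F0 libraries, and the number of lanes and the transcriptome used for mapping differed between F0 and F1 and cannot be told apart from the cross. Against F0 C57BL/6J, 4 of 8 members were lower in F1 and none higher (all genes: 20.4% called, 9.86% lower). Irf7 differed by -1.64, Isg15 by -1.37, Ifit1 by -1.31 and Ifit3 by -1.19 (limma adjusted p between 0.00015 and 0.006), and for all of them the F1 libraries lay below every F0 C57BL/6J library. Against F0 Cast/EiJ, Irf7 was higher in F1 by 1.72 and Ifit3 by 1.10, and Bst2 differed by -0.73 (limma adjusted p = 0.0015, 0.00014 and 0.022), 3 of 8 members beside 33.7% of all genes (17.5% higher and 16.2% lower). The Bst2 call was lost without F0 Cast/EiJ replicate 1 (adjusted p = 0.065), without replicate 3 (0.073) and without the 3 libraries that stood apart (0.096). Isg15 and Ifit1 differed from F0 Cast/EiJ by -0.18 and -0.23 and were not called (95% intervals -0.81 to 0.45 and -0.61 to 0.16).

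Against the average of the 2 parents, Ifit1 alone was called (-0.77 ± 0.14; adjusted p = 0.0036), 1 of 8 members and lower, beside 12.2% of all genes (7.19% higher and 5.03% lower). Its F1 libraries had 10.2, 11.7 and 10.5 count equivalents in F1 B6xCast and 11.1, 17.2 and 13 in F1 CastxB6. Isg15 had a similar value of -0.78 ± 0.24 that missed the threshold (adjusted p = 0.055). It was called without F0 Cast/EiJ replicate 2 or without F1 B6xCast replicate 1, which made 2 members. Irf7 and Ifit3 lay close to the parental average on the log scale (0.04 and -0.04), with 95% intervals of -0.52 to 0.61 and -0.31 to 0.22.

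The direction of the cross was examined through the parent-of-origin difference, the Cast over B6 difference in F1 B6xCast minus that in F1 CastxB6, divided by 2. It was called for 0 of 7 members with limma and in all alternatives, edgeR included, beside 0.492% of all genes (0.179% higher and 0.313% lower). At an unadjusted limma p under 0.05 there was 1 member, Ifi35 (-0.49 ± 0.19; adjusted p = 0.59). The F1 levels of the 2 crosses overlapped for all 9 genes.

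The other genes of the pathway were taken from lists of 79 genes, of which 77 were found (Mb21d1 and Ifi27 had no row under these symbols). In F0, 53 were expressed high enough for the test, and 25 were called, 22 lower and 3 higher in Cast/EiJ. The median log2 difference was -0.37, beside 0.03 over all genes, of which 33.8% were called. Without the 3 libraries that stood apart 18 were called, and without F0 C57BL/6J replicate 2, 14. None of 7 interferon ligand genes (Ifnb1, Ifna1, Ifna2, Ifna4, Ifne, Ifng and Il28b) passed the filter. At most 1 unique hit, for Ifne, was found in a library, and none for the other 6, which allows up to 3 hits per library.

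Among the 12 receptor and signalling genes tested, 4 were called in F0, a share near the 33.8% of all genes. Lower in Cast/EiJ were the interferon gamma receptor subunits Ifngr1 (-0.49) and Ifngr2 (-0.68) and the transcription factor Irf3 (-0.62). Irf3 activates interferon genes after virus sensing. The kinase Jak1 was slightly higher (0.26, mean 2337 against 1957 count equivalents). Its call was lost in 6 of 16 alternatives (adjusted p up to 0.086). Of the 5 sensors of foreign nucleic acid that were tested, the RNA helicases Ifih1 (-1.14) and Ddx58 (-0.80) were lower. The remaining 3 were not called (all genes: 33.8% called, 16.6% lower). The calls of Ifih1 and Ddx58 were each lost in 4 of 16 alternatives (adjusted p up to 0.14 and 0.089). Of 4 negative regulators tested, Usp18, the protease that removes Isg15 from its targets, was lower (-3.26 ± 0.49, limma adjusted p = 0.0012). Its mean was 13.9 count equivalents in C57BL/6J and 0.584 in Cast/EiJ. The difference ranged from -8.83 to -1.74 over the alternatives, and the call was lost in 1 of 13 (adjusted p up to 0.12).

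Antiviral effector genes made up most of the list, and 18 of 32 were called, 16 lower and 2 higher, beside 33.8% of all genes called, 16.6% lower and 17.2% higher. Oasl2, an oligoadenylate synthase-like protein, had the largest difference of all list genes (-5.10 ± 0.41; adjusted p = 2.5e-05), with a mean of 153 count equivalents ± 14.5 (SD, n = 3) in F0 C57BL/6J and 3.99 ± 2.48 in F0 Cast/EiJ. Ifit2 followed at -2.43, the GTPases Irgm1 at -2.18 and Gbp3 at -1.51, the nuclear body protein Sp100 at -1.96, Ifitm3, which blocks virus entry, at -1.71 and Parp12 at -1.45. The 2 genes called higher in Cast/EiJ were Mx2 (2.01; 17.4 against 4.43 count equivalents), a dynamin-like GTPase, and Xaf1 (1.79; 124 against 35.4), a pro-apoptotic factor. Mx2 and Xaf1 therefore shared the direction of Bst2. The F0 call of Mx2 was lost in 4 of 13 alternatives (adjusted p up to 0.23). That of Xaf1 was lost in 1 of 16 (adjusted p up to 0.28), and its lowest value was 0.57. Among the lower genes, the calls of Gbp3, Irgm1 and Sp100 were lost in 4 of 15, 2 of 15 and 1 of 13 alternatives.

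**Figure D4:**
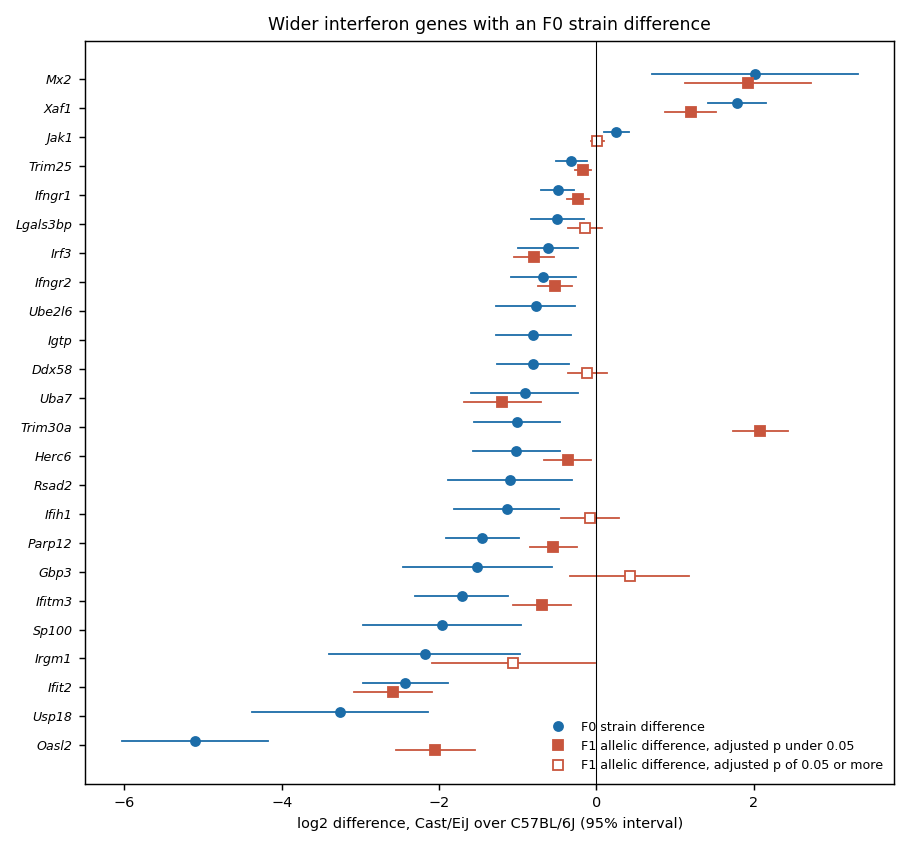
Log2 differences of Cast/EiJ over C57BL/6J (x axis) with 95% intervals for 24 of the 25 wider interferon genes called between the F0 strains; circles are the F0 difference and squares the F1 allelic difference, filled where its limma adjusted p was under 0.05 and absent where few allele-specific reads allowed no test. Of the F0 differences plotted 21 lie below 0, and Trim30a has an allelic difference of 2.08 beside an F0 difference of -1.01.

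Between alleles the wider list was balanced, with 25 of 45 genes called, 13 lower and 12 higher from the Cast allele (all genes: 47.0%), and a median of 0.01. The trans difference was called for 14 of 45 genes, 12 lower and 2 higher, beside 14.0% of all genes, with a median of -0.35. The count fell to 9 without the 3 libraries that stood apart, to 9 without F1 CastxB6 replicate 1 or 2, to 6 without F0 C57BL/6J replicate 1 and to 7 without F0 C57BL/6J replicate 2 or F0 Cast/EiJ replicate 3. In 7 of the 12 lower genes the allelic difference was above 0, as for Ifit1. Trim30a, a protein of the TRIM family, had -1.01 in F0, 2.08 between alleles and -3.09 in trans. Parp14 (0.96 and -1.39), the antibody receptor Trim21 (1.05 and -1.21), the RNA-activated kinase Eif2ak2 (0.33 and -0.68), Ifi27l1 (0.59 and -0.96) and the transcription factor Irf2 (0.13, not called, and -0.46) had the same signs for the allelic and the trans difference. The trans calls of Trim30a and Parp14 were kept in every alternative, whereas that of Trim21 was lost in 1 of 22, of Ifi27l1 in 8 of 21, of Eif2ak2 in 13 of 22 and of Irf2 in 14 of 22 (adjusted p up to 0.20 for Ifi27l1 and Eif2ak2 and 0.15 for Irf2).

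Trans differences with allelic values at or below 0 were found for Oasl2 (allelic -2.05, trans -3.06), Ifitm3 (-0.69 and -1.02), Parp12 (-0.55 and -0.90), Ifih1 (-0.08, not called, and -1.06) and Ddx58 (-0.11, not called, and -0.69). In Ifih1 and Ddx58 the strains differed in the reported fit, though not in every alternative, and the alleles passed no test. The trans call of Oasl2 was kept in all 22 alternatives, but those of Parp12, Ifitm3, Ifih1 and Ddx58 were lost in 4 of 22, 11 of 21, 12 of 22 and 13 of 22 (adjusted p up to 0.086, 0.15, 0.14 and 0.33). Pias1, a SUMO ligase that restrains Stat signalling, had the opposite pattern, with no F0 call (0.03), an allelic difference of -1.02 and a trans difference of 1.05. Ifit2 had a trans difference of 0.16 (adjusted p = 0.85) and Mx2 of 0.09 (adjusted p = 0.95), their F0 and allelic values being close to each other. Jak1 had a trans difference of 0.24 with an allelic value of 0.01, and its trans call was lost in 8 of 22 alternatives.

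In the hybrids Usp18 (3 unique hits in the 6 F1 libraries together) and the GTPase Igtp had the lowest values of the list against the parental average (-1.61 and -1.89; limma adjusted p = 0.028 and 9.2e-07). Igtp had 34.5 to 41.3 count equivalents in F0 C57BL/6J, 21.3 to 22.5 in F0 Cast/EiJ and 5.98 to 9.68 in F1, and was named after its values were seen. It had 32 to 35 unique hits in each F0 C57BL/6J library and 0 in every F1 library, so that its F1 level rests on shared reads alone. Xaf1 was the only list gene with a parent-of-origin call (-1.04 ± 0.15; limma adjusted p = 0.0013), which was lost with edgeR, on log expression with or without weights, and above a mean of 50 unique hits.

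Markers of other cells were measured in the same libraries. Of 10 microglia markers, 8 were tested in F0 and 5 were called, all lower in Cast/EiJ, namely the complement genes C1qa (-1.86), C1qb (-1.39) and C1qc (-1.33), the integrin Itgam (-1.29) and the receptor Cx3cr1 (-0.78), beside 16.6% of all genes called lower. Csf1r (-0.46), Tmem119 (-0.35) and P2ry12 (0.52; mean 30.1 count equivalents in Cast/EiJ and 21.1 in C57BL/6J) were not called. In F1, P2ry12 had a mean of 3.77 and differed from the parental average by -2.49 (limma adjusted p = 9.6e-06). This F1 level rests on a mean below 10 unique hits per F1 library, too few for a test between alleles. The summed level of the 10 markers was 391.8 to 407.9 count equivalents in F0 C57BL/6J, 207.6 to 283.3 in F0 Cast/EiJ, 226.0 to 259.8 in F1 B6xCast and 228.6 to 266.3 in F1 CastxB6. The summed level of the 9 interferon response genes was 1185 to 1330, 795.2 to 914.4, 852.9 to 999.2 and 831.1 to 903.0 in the same order. Of 6 endothelial markers Pecam1 (-0.98) and Cdh5 (-0.96) were lower and Kdr (0.65) higher in Cast/EiJ, with summed levels of 1981 to 2812 and 2972 to 3779 in the F0 strains. Of 7 Mueller glia markers 4 were lower and 1 was higher in Cast/EiJ. Among the lower ones was Gfap (-0.49), which in F1 lay below both parents (-0.96 against their average, limma adjusted p = 0.00019). The F1 level of Ifit1 was also below the parental average, but it overlapped F0 Cast/EiJ. The summed level of 3 red blood cell markers was 418.7 to 592.9 in F0 C57BL/6J and 369.6 to 620.5 in F0 Cast/EiJ, against 214.8 to 299.7 in the F1 libraries. Of these, Hbb-b1 was lower in Cast/EiJ (-1.13), whereas Hba-a1 was not called in F0 (0.52). Hba-a1 was lower in F1 than the parental average (-1.49), but it had a mean below 10 unique hits per F1 library. Hbb-b1 was not called against the parental average (-0.27, limma adjusted p = 0.39). Of 4 pigment epithelium markers tested in F0, Rgr was lower in Cast/EiJ (-1.52). Of 5 T and NK cell markers, Cd3e, Cd3g and Nkg7 had 0 unique hits in every library, Gzma had at most 1 and Cd8a at most 5. Their summed level was 3.40 to 5.07 count equivalents in F0 C57BL/6J, 0.0588 to 2.24 in F0 Cast/EiJ and 0.106 to 2.27 in F1. It was higher in every F0 C57BL/6J library, but it was low throughout and rested mostly on Cd8a (mean 1.61 over the 12 libraries). The part of these cells in the differences was not tested.

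As a description, the pattern of the 9 genes over the 12 libraries (the mean of their standardized log2 levels) ranged from 1.28 in F0 C57BL/6J replicate 1 to -0.50 in F1 B6xCast replicate 2. All 3 F0 C57BL/6J libraries were above 0.54 and all others below 0.05. Of 11568 autosomal genes outside the lists whose mean reached 50 count equivalents, those most like it were A430033K04Rik (Pearson r = 0.92), Gm13394 (0.91), Lrrc27 (0.91), Gm15850 (0.90) and Grin2b (0.90). These points share libraries and strains, and the order is not a test.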

How the data were processed

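Polyadenylated RNA of 12 pooled retina samples was sequenced by the authors, with trimming by Trim Galore 0.2.6 and mapping by Bowtie 0.12.9 per the submitters' processing notes. For F0 the authors used a transcriptome of each strain and for F1 a hybrid one, both from Ensembl on NCBI37 (mm9), and estimated expression with MMSEQ. Count equivalents are a signal the authors normalized between libraries and are not whole numbers. Log expression was deposited as a natural log by the authors, beside its posterior SD, and its exponential served as FPKM. Unique hits are a count that the authors deposited without normalization. A table of the authors' own model comparison, which holds posterior probabilities of regulatory models, was not used, nor were its 36 per-sample columns, which repeat expression values and their SD.

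Limma 3.58.1 in R 4.3.3 was fitted on log2(count equivalents + 1). F0 tests were limited to autosomal genes that reached 10 count equivalents in 3 or more of the 6 libraries. Allelic, trans and parent-of-origin differences came from 1 model of F0 and F1 columns with the library as a block (consensus correlation 0.1354), over genes with a mean of at least 10 unique hits per F1 library. F1 means were fitted over 12 libraries with the filter of the F0 test. P-values measure the spread between pools of retinas. EdgeR 4.0.16, DESeq2 1.42.0, other pseudocounts, filters, a replicate block and libraries left out in turn were alternatives. Fits were tested on simulated data. Wilson intervals are at 95%. The members and lists were chosen with earlier results of these data known. All 9 members were named in every comparison. Of the wider lists the 12 largest F0 calls, all trans calls and any gene that stands behind a small count were named, except for results not reported here, with Igtp added after its values were seen; outside the lists, the 5 genes with the highest Pearson r were named.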

Additional observations from a re-analysis of the deposited data

Results flagged for a closer look

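Irf7 and Ifit1 had a strain difference in F0 that differed from the allelic difference in F1 by a test of the difference itself. For Irf7 the difference between these contrasts, the trans difference, was -2.24 (log2; limma adjusted p = 0.0014), with -3.37 in F0 and -1.13 between alleles, where the Cast allele was lower in 6 of 6 libraries. For Ifit1 it was -1.86 (adjusted p = 0.00019), with -1.08 in F0 and 0.77 between alleles, where the Cast allele was higher in 6 of 6 libraries.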

How the results depend on the processing

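The F0 calls of Irf7, Ifit1 and Ifit3, the allelic calls of Irf7, Ifit1, Ifit3 and Ifi35 and the trans calls of Irf7 and Ifit1 were kept in every alternative in which the gene was tested. In F0, 3 members were called with DESeq2, without a filter and without the 3 libraries that stood apart, and 2 at a mean of at least 50 (where fewer members are tested). Left-out libraries gave 3 to 5. Of the wider list, 14 were called on log expression, 15 without a filter (3161 of all genes), 12 at a mean of at least 50, and 14 to 24 with libraries left out in turn. At a mean of at least 50 unique hits, 1 member was called between alleles and 1 in trans. The trans count of the wider list was 9 without the 3 libraries and 6 to 14 with libraries left out in turn. The single parent-of-origin call of the wider list fell to 0 with edgeR, on log expression with and without weights, and at 50 unique hits, and over all genes 40, 32 (weights) and 38 (50 hits) were called. Against the parental average, 2 members were called with a pseudocount of 5, 0 at a mean of at least 50 and 1 to 2 with libraries left out, and of the wider list (7 in the reported fit) 2 without the 3 libraries, 3 on log expression, 1 at a mean of at least 50 and 3 to 7 with libraries left out. Against F0 C57BL/6J, 2 members and 5 wider genes (reported fit: 4 and 17) were called at a mean of at least 50, and against F0 Cast/EiJ (16 wider genes in the reported fit) 10 wider genes on log expression and 10 to 17 with libraries left out. The cause was not tested, except that higher minimums leave fewer genes.

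No value that changed sign was called after the change. In F0 these were Irf9 (-0.10) and Ifi27l1 (0.10) on log expression, and Stat2 (0.01) and Trim21 (0.15) without the 3 libraries. Between alleles it was Ifih1 (0.16, and 0.24 with weights). In trans these were Ifi35 (0.13) and Xaf1 (-0.25, and -0.40 with weights) on log expression, Mx2 (-0.19) with a pseudocount of 5 and Ifit2 (-0.043) without the 3 libraries. Against the parental average it was Irf7 (-0.0836 without the 3 libraries, -0.14 on log expression, -0.015 with a pseudocount of 5). With libraries left out in turn the F0 difference ranged from -0.11 to 0.038 for Stat2, from -0.074 to 0.19 for Irf9, from -0.016 to 0.062 for Pias1 and from -0.33 to 0.18 for Trim21, and the allelic difference from -0.22 to 0.011 for Ifih1, from -0.0075 to 0.040 for Jak1 and from -0.0027 to 0.079 for Stat2. The trans difference ranged from -0.17 to 0.25 for Ifi35, from -0.048 to 0.39 for Ifit2, from -0.20 to 0.068 for Irf9 and from -0.58 to 0.55 for Mx2. The parent-of-origin difference of Stat2 ranged from -0.044 to 0.037, the F1 level against F0 C57BL/6J of Irf9 from -0.21 to 0.062, and that against the parental average from -0.12 to 0.037 for Ifit3 and from -0.19 to 0.22 for Irf7.

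Replicate numbers are shared between groups, but same-numbered samples deviated together in only part of the pairs (correlations from -0.14 to 0.40 over 11624 genes). The replicate 1 libraries of both F0 strains and F1 B6xCast, those that stood apart, deviated together (0.33 to 0.40), and their replicate 3 libraries less so (0.14 to 0.21), whereas replicate 2 and F1 CastxB6 did not (-0.14 to 0.081). The numbers were therefore not taken as pairs, and the block is given as an alternative. With the replicate number as a block, 5 members and 27 wider genes were called in F0, 5 and 25 between alleles, and 2 and 15 in trans. The block changed no call of a member; of the wider genes named, Irf2 in F0 gained a call and Ddx58 in trans lost it. Isg15, the B6 allele of Bst2 and Oas1a rest on few unique hits, which limits their precision.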
